A study of Mus musculus with 3 samples.

Results

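The 39 genes described here encode the machinery that copies DNA, and they were chosen by name, with no measured value in the rule. All 39 were found among the 27998 genes of the deposited gene lists. By role they fall into origin licensing (8 genes: Cdc6, Cdt1 and Mcm2 to Mcm7), helicase activation (4: Mcm10, Cdc45, Gins1, Gins2) and polymerases with primase (6: Pola1, Pola2, Prim1, Pold1, Pold2, Pole). A further 11 belong to the sliding clamp, its loader, single-strand binding and the joining of Okazaki fragments (Pcna, Rfc1 to Rfc5, Rpa1 to Rpa3, Fen1, Lig1). The last groups are nucleotide supply (5: Tyms, Tk1, Rrm1, Rrm2, Dut) and chromatin (5: Uhrf1, Hells, Chaf1a, Chaf1b, Slbp).

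Adult mice (n = 5 in the labels, with no exact age) gave cells of the subventricular zone, a stem cell niche beside the lateral ventricles. Every animal carried aSMACreERt2::Rosa26-tdTomato together with the allele of B6;129S-Sox2tm2Hoch/J, on a mixed strain of C57/Bl6(3/4) and 129S1SvlmJ(1/4). The former is a tamoxifen-dependent Cre driven by the smooth muscle actin (Acta2) promoter, which switches on tdTomato from the Rosa26 locus, and the latter puts GFP under control of Sox2. The tamoxifen schedule was not given in the sources used here, and no reporter transcript was used. Tissue was digested with papain and GFP-positive cells were sorted by tdTomato, with gates set on wildtype cells: 1 library came from the tdTomato-positive gate (1200 cells) and 2 from the tdTomato-negative gate (1200 and 6000 cells), all with 10x Chromium 3′ v2 chemistry. Whether separate animals stand behind each library is not stated, so no p-value is known to measure spread between animals. In comparisons of classes, p-values rest on how class differences vary between these libraries, estimated over all classes together. In comparisons of gates they rest on the spread between the 2 tdTomato-negative libraries. Either spread may be technical.

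The files held 314, 259 and 1127 cell barcodes with 788344, 929997 and 3593633 unique molecular identifiers (UMIs, each a counted transcript molecule) in the tdTomato-positive library and the first and second tdTomato-negative libraries, and 252, 256 and 1121 cells were kept. The tdTomato-positive library stood apart in its median mitochondrial share, 8.27% of UMIs against 3.22% and 3.38%. The libraries shared 0 to 2 barcodes in pairs. Cells were clustered without the 39 genes, and clusters were named by marker genes, with the suffix "-like" because the names were rebuilt here. The tdTomato-positive library gave 177 ependymal-like and 17 astrocyte-like cells, beside 20 endothelial-like, 14 microglia-like, 14 oligodendrocyte-like and 8 mural-like cells. The tdTomato-negative libraries gave 37 and 166 transit-amplifying-like cells, 49 and 307 neuroblast-like, 88 and 293 neuron-like, 48 and 240 astrocyte-like, 18 and 50 oligodendrocyte precursor-like, 4 and 20 oligodendrocyte-like and 12 and 45 ependymal-like cells. The tdTomato-positive library held 0 transit-amplifying-like cells among 252, which allows a share of up to 1.19%, and its kept cells carried 433 UMIs of the 39 genes against 2607 and 9148.

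Before a cell copies its genome, Cdc6 and Cdt1 load the ring of Mcm2 to Mcm7 proteins onto each replication origin while the cell is still in G1. Cdc45 and the GINS complex then turn the loaded ring into a working helicase, primase and the polymerases copy the strands behind it, and the clamp PCNA, opened by the RFC loader, holds the polymerases on DNA. Ribonucleotide reductase (Rrm1, Rrm2), thymidylate synthase (Tyms), thymidine kinase (Tk1) and dUTPase (Dut) supply clean nucleotides, and the CAF-1 subunits Chaf1a and Chaf1b put histones back on the new DNA. Many of these genes are switched on by E2F factors late in G1. In the subventricular zone, stem cells that resemble astrocytes are mostly quiescent, their transit-amplifying progeny divide fast, neuroblasts divide less and migrate away, and multiciliated ependymal cells line the ventricle and are generally regarded as post-mitotic.

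Promoter sequence is shown for 4 genes of the MCM ring, to set 2 windows that carry an E2F-type word beside 2 that do not. The words searched, on both strands and with overlapping matches counted, were TTTGGCGC, TTTCCCGC, TTTGCCGC and TTTCGCGC. The RefSeq table (GRCm38.p6) held a window of 250 bases upstream of the first start it lists for 34 of the 39 genes. It had none for Mcm4, Rfc2, Gins1, Gins2 and Pole. A word was present in 7 of the 34 windows (20.6%): those of Cdc6, Hells, Mcm5, Mcm6, Mcm7, Pola1 and Rfc3. GENCODE vM21, used here for gene positions, places some starts further upstream. By it the whole windows of Cdc6 and Mcm7, and the words of Hells and Rfc3, lie inside the gene. Over all genes of the table the share was 1.91% (517 of 27025), among 54 other replication genes 20.4% and among 32 mitosis genes 3.12%. The sequences read 5′ to 3′ on the gene's own strand, and capitals mark the words. The windows are chr8:75109259-75109508 (plus strand), chr1:128359706-128359955 (minus strand), chr6:88898781-88899030 (minus strand) and chr1:20820313-20820562 (minus strand).
Mcm5: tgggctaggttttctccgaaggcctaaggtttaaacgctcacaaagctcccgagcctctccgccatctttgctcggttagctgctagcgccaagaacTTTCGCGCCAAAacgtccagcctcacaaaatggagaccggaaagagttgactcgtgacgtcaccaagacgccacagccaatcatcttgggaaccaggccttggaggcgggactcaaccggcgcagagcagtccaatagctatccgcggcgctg
Mcm6: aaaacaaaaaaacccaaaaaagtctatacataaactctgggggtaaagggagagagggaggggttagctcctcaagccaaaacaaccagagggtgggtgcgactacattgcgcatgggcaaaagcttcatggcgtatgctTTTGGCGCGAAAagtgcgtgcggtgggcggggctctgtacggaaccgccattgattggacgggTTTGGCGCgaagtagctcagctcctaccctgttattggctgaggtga
Mcm2: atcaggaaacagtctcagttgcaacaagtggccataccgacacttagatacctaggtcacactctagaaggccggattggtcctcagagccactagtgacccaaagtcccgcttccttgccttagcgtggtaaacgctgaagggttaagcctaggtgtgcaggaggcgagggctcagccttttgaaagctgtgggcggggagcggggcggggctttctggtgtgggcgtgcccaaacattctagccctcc
Mcm3: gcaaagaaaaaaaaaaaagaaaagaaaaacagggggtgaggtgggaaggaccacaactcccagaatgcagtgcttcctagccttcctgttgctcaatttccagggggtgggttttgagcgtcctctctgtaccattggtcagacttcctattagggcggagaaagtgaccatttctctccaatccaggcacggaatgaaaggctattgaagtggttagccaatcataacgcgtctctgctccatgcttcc
The Mcm5 window held 2 words that overlap and the Mcm6 window held 3, while those of Mcm2 and Mcm3 held none. A match describes these letters only and marks no tested binding site.

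Summed over the 39 genes, the level was highest in transit-amplifying-like cells, at 5230 counts per 1000000 UMIs (CPM) in the first tdTomato-negative library and 5544 in the second. Neuroblast-like cells followed with 2264 and 1422 CPM, which is 43.3% and 25.6% of the transit-amplifying-like level of the same library. Neuron-like cells had 1129 and 973 CPM, and oligodendrocyte precursor-like cells 799 and 1361. The ependymal-like level was 631 CPM among tdTomato-positive cells and 1179 and 731 CPM in the other libraries. The 1179 rested on 12 cells and 53 UMIs, with an exact Poisson 95% interval of 883 to 1542. Oligodendrocyte-like cells had 371 (tdTomato-positive) and 718 CPM (second tdTomato-negative library), endothelial-like cells 466 and microglia-like cells 574. Only the transit-amplifying-like level was separated from every other class in every library, and the order of neuron-like and oligodendrocyte precursor-like cells differed between the libraries.

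Astrocyte-like cells, the class that can hold quiescent stem cells, had 489 CPM among tdTomato-positive cells and 1803 and 921 CPM in the other libraries, and their spread came with 2 clusters. The cluster led by Slc7a10, an amino acid transporter of parenchymal astrocytes, held 214 cells and had 420, 663 and 482 CPM. The cluster led by Gfap held 91 cells and had 3311 and 1762 CPM in the tdTomato-negative libraries. Finer clustering assigned 26 astrocyte-like cells to an unnamed cluster led by Ung, and the remaining Gfap-led cells had 815 and 672 CPM. The plot of summed levels by class shows these values with their counting intervals.

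**Figure D1:**
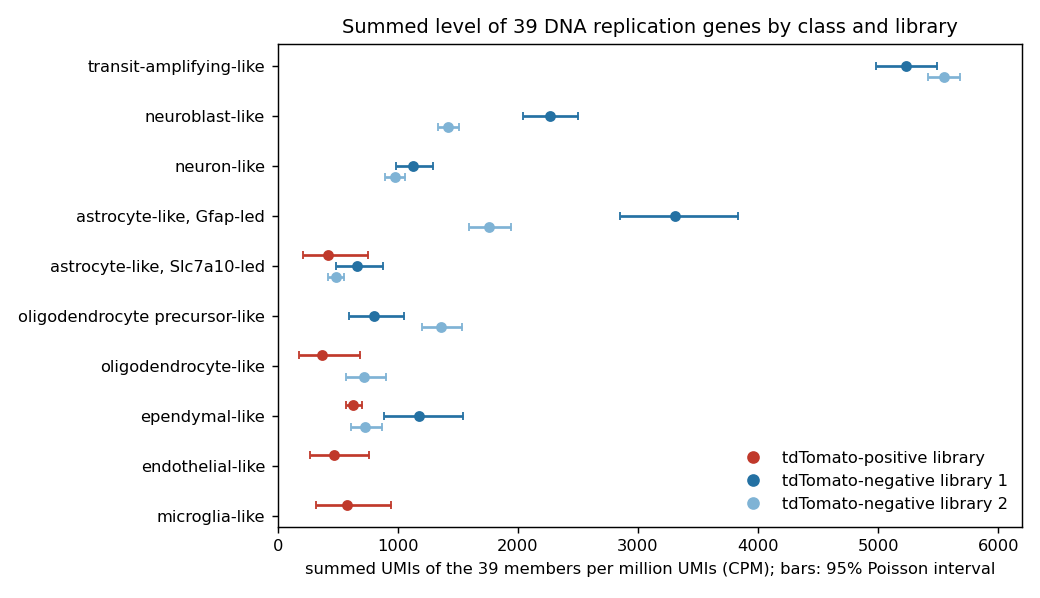
Each point is 1 class in 1 library with at least 10 cells; the x axis gives the UMIs of the 39 members per 1000000 UMIs, and bars are exact Poisson 95% intervals that cover counting error only. Transit-amplifying-like cells lie at 5230 and 5544 CPM, and the Gfap-led part of the astrocyte-like cells spans 1762 to 3311 CPM while the Slc7a10-led part stays at 420 to 663.

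Seen cell by cell, a UMI of at least 1 of the 39 genes was found in all 203 transit-amplifying-like cells (exact binomial 95% interval 98.2 to 100%), but also in 76.3% of 38 oligodendrocyte-like cells (59.8 to 88.6%), a class of post-mitotic cells. Median depth was 6769 UMIs in the former and 3692.5 in the latter, so cells were also compared at an equal depth of 1000 UMIs drawn from each; 41, 12 and 6 cells of the 3 libraries had fewer and dropped out. The share with any member was then 95.1% in transit-amplifying-like cells, 65.1% in neuroblast-like, 64.3% in neuron-like and 51.6% in oligodendrocyte-like cells. It was 39.4%, 90.9% (10 of 11 cells) and 48.9% of ependymal-like cells in the tdTomato-positive and the 2 tdTomato-negative libraries, and 41.7%, 51.2% and 42.9% of astrocyte-like cells. The oligodendrocyte-like share is read here as background. It rested on 16 of 31 cells, with 42.9% (3 of 7) in the tdTomato-positive and 55.0% (11 of 20) in the second tdTomato-negative library. In 5 of these 6 values the share was under the pooled 51.6%, the 51.2% only barely. With so few background cells, that count does not place either class below background. The presence of at least 3 different members in 1000 UMIs set the classes further apart: 67.6% and 67.5% of transit-amplifying-like cells in the 2 libraries against 14.3% and 12.1% of neuroblast-like cells. It was 1.88%, 0 and 4.44% of ependymal-like cells in the tdTomato-positive and the 2 tdTomato-negative libraries, that is 3 of 160, 0 of 11 and 2 of 45 cells.

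The classes were compared on UMIs summed per library and class with edgeR's quasi-likelihood test, library as a block and Benjamini-Hochberg adjustment over all genes tested. In a fit with no filter on low counts (8603 genes), 34 of the 39 members were higher in transit-amplifying-like than in neuroblast-like cells. The threshold was an adjusted p under 0.05, and 0 were lower. Over all genes of that fit 5.24% were called higher. Against astrocyte-like cells 38 of 39 were higher and 0 lower, with 13.1% of all genes called higher. The median log2 fold change of the members was 1.88 and 2.41, against 0.02 and 0.05 over all genes. The members took no part in the clustering, but the class is named by dividing-cell markers such as Top2a and Mki67, so these counts describe the class. In that fit the 5 members not called against neuroblast-like cells were Gins1, Pola1, Chaf1b, Pole and Cdc6, and Pole alone was not called against astrocyte-like cells. With cycle genes kept out of the clustering, 26 of the 32 members that passed the low-count filter were higher against neuroblast-like cells. Against astrocyte-like cells 32 of 32 were higher, beside 8.6% and 20.4% of all genes in the 2 comparisons. In that setting the class was still named by dividing-cell markers, with Top2a and Ube2c among its leading genes. The counts with cycle genes kept out therefore describe the class too. Under the filter and the original clusters the counts were 29 of 32 and 32 of 32, beside 9.08% and 22.2% of all genes called higher. Under DESeq2 they were 10 and 18, beside 3.38% and 10.1% of all genes. Without the second tdTomato-negative library they were 2 and 9 of the 11 members tested, beside 2.46% and 15.5%. Without the first they were 17 and 28 of 31, beside 2.9% and 9.85%. The plot of fold changes shows all 39.

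**Figure D2:**
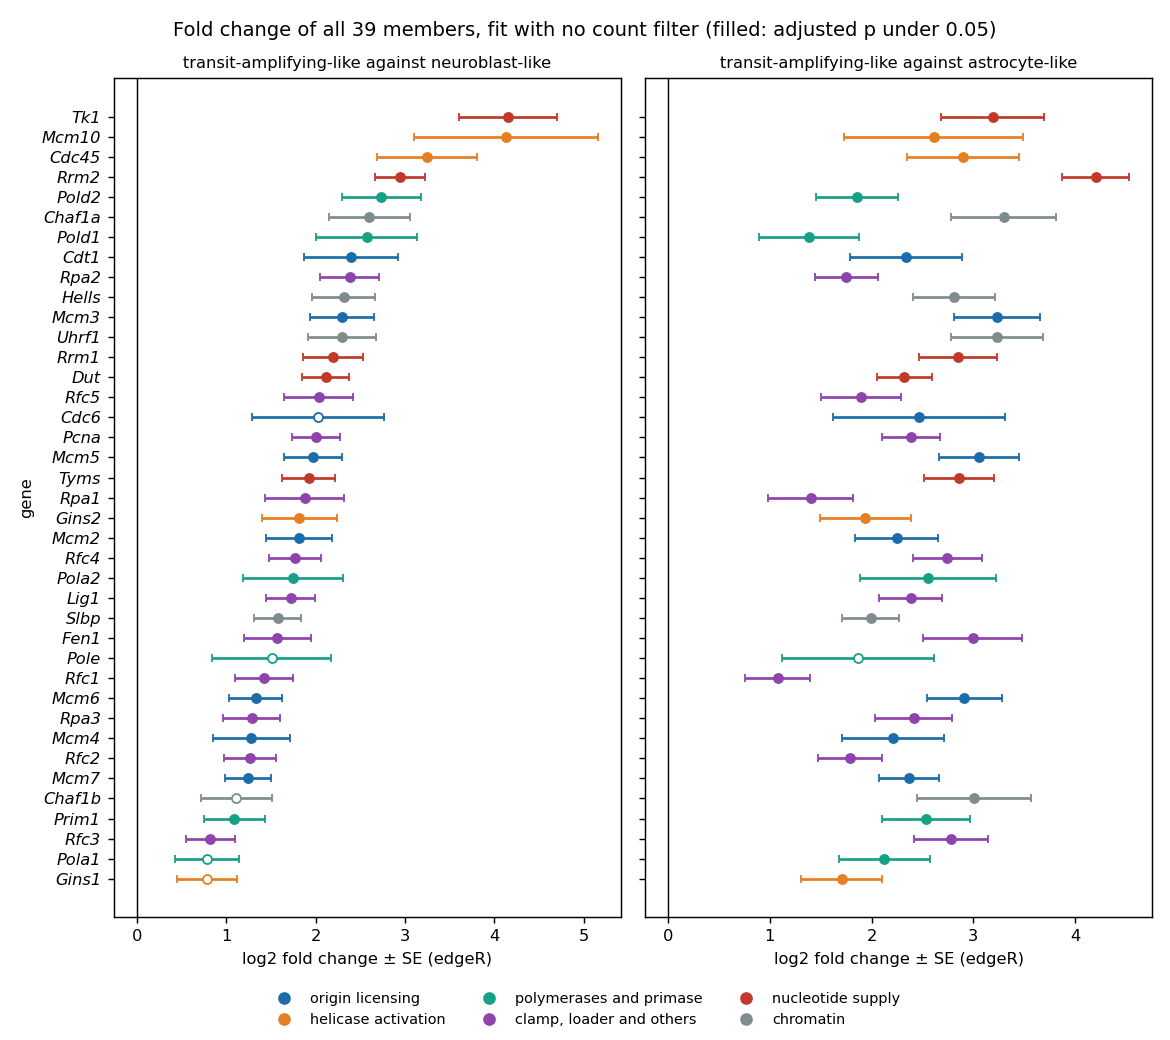
Points give the log2 fold change of each member in transit-amplifying-like cells against neuroblast-like (left) and astrocyte-like cells (right), bars the standard error, colours the role and filled points an adjusted p under 0.05 by edgeR in the fit with no count filter. All points lie above 0, from 0.79 (Gins1) to 4.16 (Tk1) on the left and from 1.08 (Rfc1) to 4.20 (Rrm2) on the right.

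Among the licensing genes, Mcm7 and Mcm6, subunits of the helicase ring, had the highest levels. Astrocyte-like values from here on are those of the tdTomato-negative libraries unless another is named; the 17 astrocyte-like cells of the tdTomato-positive library carried 16 UMIs of all members together and entered the fits. Mcm7 (chr5:138164583-138172422) was at 278 and 317 CPM in transit-amplifying-like cells of the 2 tdTomato-negative libraries, 147 and 128 in neuroblast-like and 110 and 53.8 in astrocyte-like cells. Both transit-amplifying-like values lay above all others, and neuron-like cells still had 121 and 108 CPM. Its log2 fold change was 1.16 ± 0.24 (SE; adjusted p = 3.38e-05, edgeR) against neuroblast-like cells. Mcm6 (chr1:128331590-128359664) was at 145 and 185 CPM in transit-amplifying-like, 76.3 and 71.2 in neuroblast-like and 31.5 and 24.6 in astrocyte-like cells, a change of 1.25 ± 0.28 (adjusted p = 0.000174, edgeR) against neuroblast-like cells. The 2 libraries did not overlap between these classes. The loader Cdc6 had few molecules, 34.7 and 19.7 CPM in transit-amplifying-like cells against 17.6 and 2.59 in neuroblast-like cells, and was not called (adjusted p = 0.0676, edgeR with no count filter). Across the 8 licensing genes, in the fit with no count filter, the log2 fold change ran from 1.24 to 2.40 against neuroblast-like and from 2.21 to 3.23 against astrocyte-like cells.

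Of the helicase activators, Gins1 and Gins2, subunits of the GINS complex, parted. Gins1 was at 82.1 and 78.7 CPM in transit-amplifying-like cells and still at 35.2 and 53.1 in neuroblast-like cells, a change of 0.71 ± 0.34 that was not called (adjusted p = 0.157, edgeR). Gins2 was at 56.8 and 67.6 against 17.6 and 19.4 CPM, a change of 1.75 ± 0.44 (adjusted p = 0.000909, edgeR). The difference between the 2 genes was not tested. Mcm10, a helicase co-factor, was at 25.2 and 24.0 CPM in transit-amplifying-like cells and had 1 UMI in all neuroblast-like cells.

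For primase and the polymerases, Prim1, the catalytic primase subunit, was at 66.3 and 108 CPM in transit-amplifying-like and 70.4 and 38.8 in neuroblast-like cells, so that the classes overlapped in the first library. Its fitted change was 1.02 ± 0.34 (adjusted p = 0.0219, edgeR). Pold2, an accessory subunit of polymerase delta, was at 69.4 and 88.1 against 11.7 and 12.9 CPM, a change of 2.67 ± 0.45 (adjusted p = 1.14e-07, edgeR). Pola1, the catalytic subunit of polymerase alpha, had the smallest change of the members that passed the filter: 66.3 and 65.9 CPM in transit-amplifying-like, 64.5 and 32.4 in neuroblast-like cells, 0.71 ± 0.37 (adjusted p = 0.210, edgeR). In the first library the neuroblast-like levels of Pola1 and Prim1 were close to the transit-amplifying-like ones.

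All 11 genes of the clamp and fork group were called against both classes. Pcna, the clamp (chr2:132249162-132253314), was at 353 and 327 CPM in transit-amplifying-like, 147 and 64.7 in neuroblast-like and 118 and 56.9 in astrocyte-like cells, a change of 1.93 ± 0.26 (adjusted p = 3.74e-12, edgeR) against neuroblast-like cells. Lig1, the ligase that joins Okazaki fragments, was at 281 and 257, 135 and 64.7, and 134 and 32.3 CPM in the same classes, a change of 1.65 ± 0.26 (adjusted p = 8.81e-09, edgeR). For both genes the first library was the higher one in neuroblast-like and astrocyte-like cells. Rfc1, the large subunit of the clamp loader, had the smallest change against astrocyte-like cells, 117 and 116 CPM against 70.8 and 59.9, or 0.98 ± 0.31 (adjusted p = 0.00531, edgeR), and astrocyte-like cells of the tdTomato-positive library had 91.7 CPM from 17 cells. The small RFC subunit Rfc4, with 205 and 210 CPM against 31.5 and 35.4, changed by 2.66 ± 0.33 (adjusted p = 2.0e-14, edgeR).

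The nucleotide-supply group held the largest changes among the members that passed the count filter. Rrm2, the small subunit of ribonucleotide reductase (chr12:24708241-24714146), was at 492 and 495 CPM in transit-amplifying-like, 141 and 41.4 in neuroblast-like and 55.1 and 21.5 in astrocyte-like cells. The change was 4.11 ± 0.32 (17.3-fold, adjusted p = 4.88e-36, edgeR) against astrocyte-like and 2.87 ± 0.27 (7.32-fold, adjusted p = 1.17e-24, edgeR) against neuroblast-like cells. Tk1, the thymidine kinase of dividing cells (chr11:117815526-117826092), was at 53.7 and 91.6 CPM in transit-amplifying-like cells and at 11.7 and 2.59 in neuroblast-like cells, where 4 UMIs were counted. Its change of 4.08 ± 0.58 (adjusted p = 6.71e-11, edgeR) was the largest against neuroblast-like cells among the members that passed the filter. Dut, which clears dUTP, was at 483 CPM in both libraries, 170 and 94.5 in neuroblast-like and 197 and 75.3 in astrocyte-like cells.

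In the chromatin group, Slbp, which binds the stem-loop of histone mRNAs, was at 281 and 341 CPM in transit-amplifying-like, 135 and 102 in neuroblast-like and 78.7 and 87.6 in astrocyte-like cells. Hells, a chromatin remodeller (chr19:38930915-38971051), was at 120 and 146, 52.8 and 22 CPM, and 39.4 and 16.9 CPM, a change of 2.24 ± 0.36 (adjusted p = 1.65e-08, edgeR) against neuroblast-like cells. The CAF-1 subunits parted against neuroblast-like cells. Chaf1a was at 72.6 and 72.7 against 29.3 and 7.77 CPM, a change of 2.53 ± 0.47 (adjusted p = 1.89e-06, edgeR), while Chaf1b was at 66.3 and 50.5 against 64.5 and 15.5 CPM and was not called (1.03 ± 0.42, adjusted p = 0.0761, edgeR). Their difference was not tested. The heat map of levels shows every member in every class and library.

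**Figure D3:**
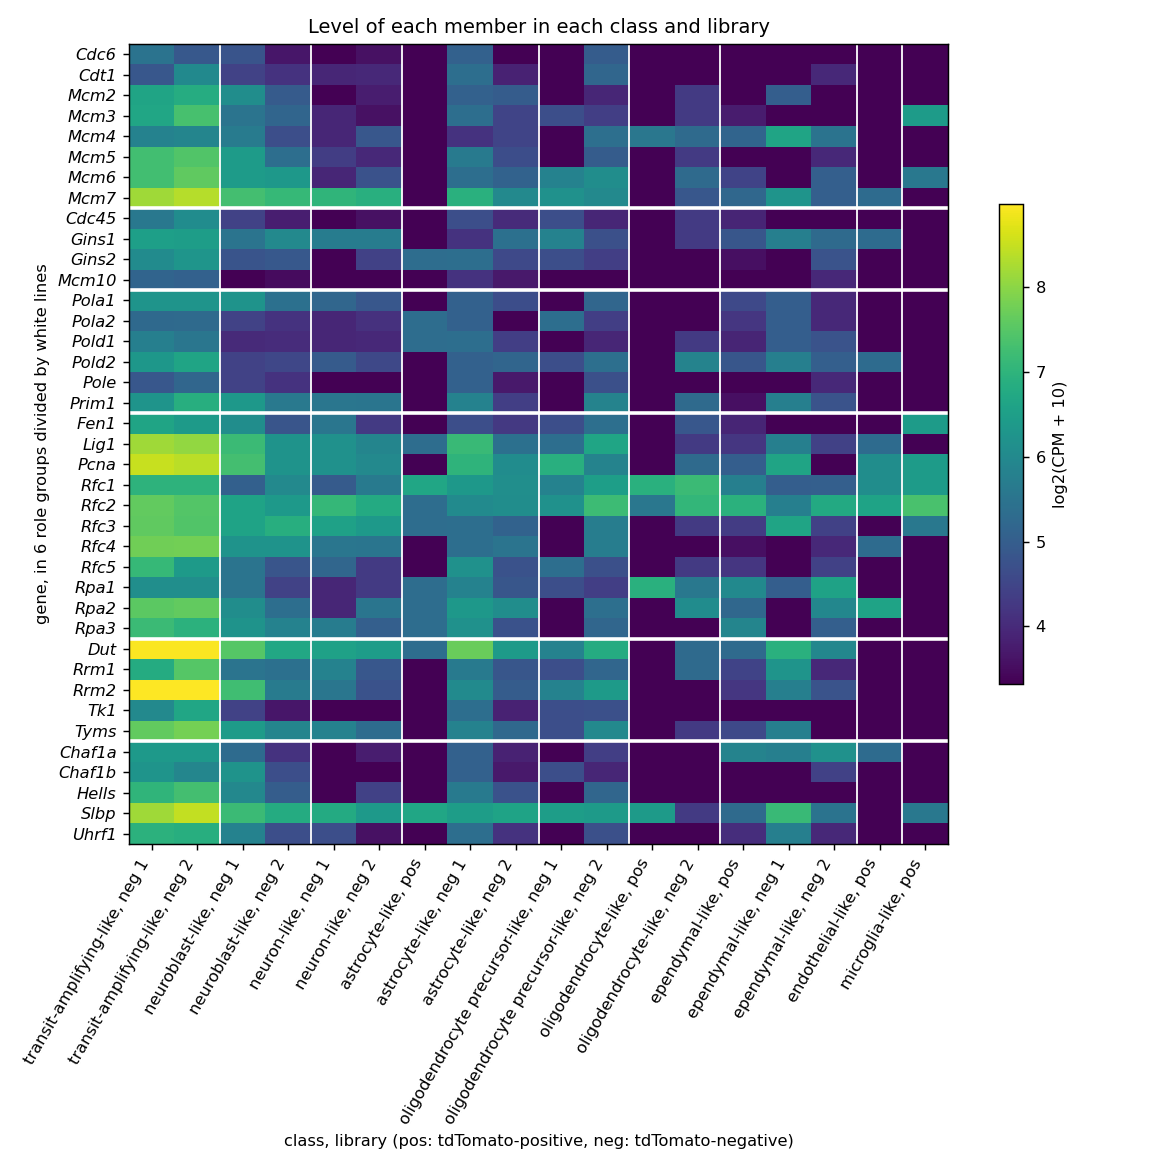
Rows are the 39 members in 6 role groups, columns the 18 class and library sums with at least 10 cells, and colour is log2(CPM + 10). The first 2 columns, transit-amplifying-like cells, are the brightest for most members, and Chaf1a, Rpa1, Rfc2 and Mcm4 stay visible in the ependymal-like columns.

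Replication genes outside the 39 were taken from a list of 68. In the fit with no count filter 37 of 68 were higher in transit-amplifying-like than in neuroblast-like cells, beside 5.24% of all genes. Against astrocyte-like cells 52 of 68 were higher, beside 13.1%, and 0 were lower in either comparison. Like the counts of members, these describe a class named by dividing-cell markers. Of the 6 with the highest level, 2 were not called against neuroblast-like cells. Cdca7, a partner of Hells, was at 697 and 679 CPM in transit-amplifying-like, 675 and 584 in neuroblast-like and 63.0 and 72.2 in astrocyte-like cells, so the called difference was against astrocyte-like cells (3.32 ± 0.28, adjusted p = 3.97e-30, edgeR; 0.15 ± 0.21, adjusted p = 0.714 against neuroblast-like). Rbbp4, a histone chaperone shared by CAF-1 and other complexes, changed by 0.58 ± 0.23 (adjusted p = 0.0609, edgeR) against neuroblast-like cells. The histone chaperones Nasp and Ssrp1, thymidylate kinase (Dtymk) and the fork protein Tipin were called, with log2 fold changes of 0.95 to 1.70.

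Within transit-amplifying-like cells the members did not move as 1 block. The cells of each tdTomato-negative library were ranked by the share of UMIs in a list of 35 mitosis genes, which holds no member, and cut into 3 parts (13, 12 and 12 cells, and 56, 55 and 55 cells). The summed level of the mitosis genes rose by construction from 2773 to 20104 CPM and from 2276 to 20350 CPM. The summed members went from 6974 over 6223 to 3131 CPM in the first library and from 6449 over 6987 to 3640 in the second, so they were high in the lower and middle parts and fell in the most mitotic part. Median depth was 7351, 6908 and 9721.5 UMIs and 5801.5, 6224 and 7320 UMIs. Between the most and the least mitotic part, 21 of 39 members were at least 1.5-fold lower in both libraries, beside 7.4% of 5862 genes with at least 20 UMIs, and 0 were 1.5-fold higher, beside 6.62%. The comparison is a description of cells of 2 libraries, with no test. With the cells thinned to 2000 UMIs, 9 of the 21 members with enough UMIs were lower in both, beside 5.1% of 2253 genes. With each library split in 2 at the median the count was 17 of 39, beside 5.28% of 6984 genes.

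By role this count was uneven, beside the 7.4% of all genes, and differences between roles were not tested. Licensing genes were lower in 7 of 8 cases, chromatin genes in 5 of 5 and the clamp and fork group in 6 of 11. Polymerases were lower in 2 of 6, helicase activators in 1 of 4 and nucleotide supply in 0 of 5. The groups are small and some genes lay near the 1.5-fold cut. Uhrf1 passed it with log2 ratios of -0.60 and -1.29, and Rpa1 did not with -0.56 and -0.62. Cdc6 went from 105 over 0 to 8.01 CPM and from 35.2 over 29.0 to 0 CPM across the 3 parts, on 23 UMIs in the outer parts. Mcm2 (chr6:88883474-88898780) went from 242 over 41.3 to 8.01 CPM and from 179 over 113 to 37.9 CPM. Chaf1b went from 147 over 51.7 to 16.0 CPM and from 79.3 over 58.0 to 22.3 CPM. These 3 had the lowest mean log2 ratios, -3.48, -3.08 and -2.23, computed with 1 UMI added to each sum.

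At the other end, Rfc5, Tk1 and Gins1 had mean log2 ratios of 0.29, 0.07 and -0.04. For each of them the 2 libraries had opposite signs, so no common direction was seen. The ratios were 0.69 and -0.10 for Rfc5, -0.39 and 0.53 for Tk1, and -0.53 and 0.44 for Gins1. They rested on 82, 62 and 84 UMIs in the outer parts. Rfc5 went from 84.0 over 155 to 144 CPM and from 73.4 over 81.8 to 69.0 CPM. Tk1 peaked in the middle part of both libraries, from 31.5 over 114 to 24.0 CPM and from 55.8 over 135 to 82.4 CPM. The whole nucleotide-supply group also peaked there, with 1481, 1757 and 849 CPM and 1319, 1931 and 1149 CPM. The licensing group instead fell stepwise, with 1302, 786 and 552 CPM and 1539, 1124 and 601 CPM. Within the ring the log2 ratios were uneven: -0.15 and -0.68 for Mcm7, -0.92 and -0.95 for Mcm5, -0.65 and -1.78 for Mcm4, and -3.98 and -2.18 for Mcm2.

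**Figure D4:**
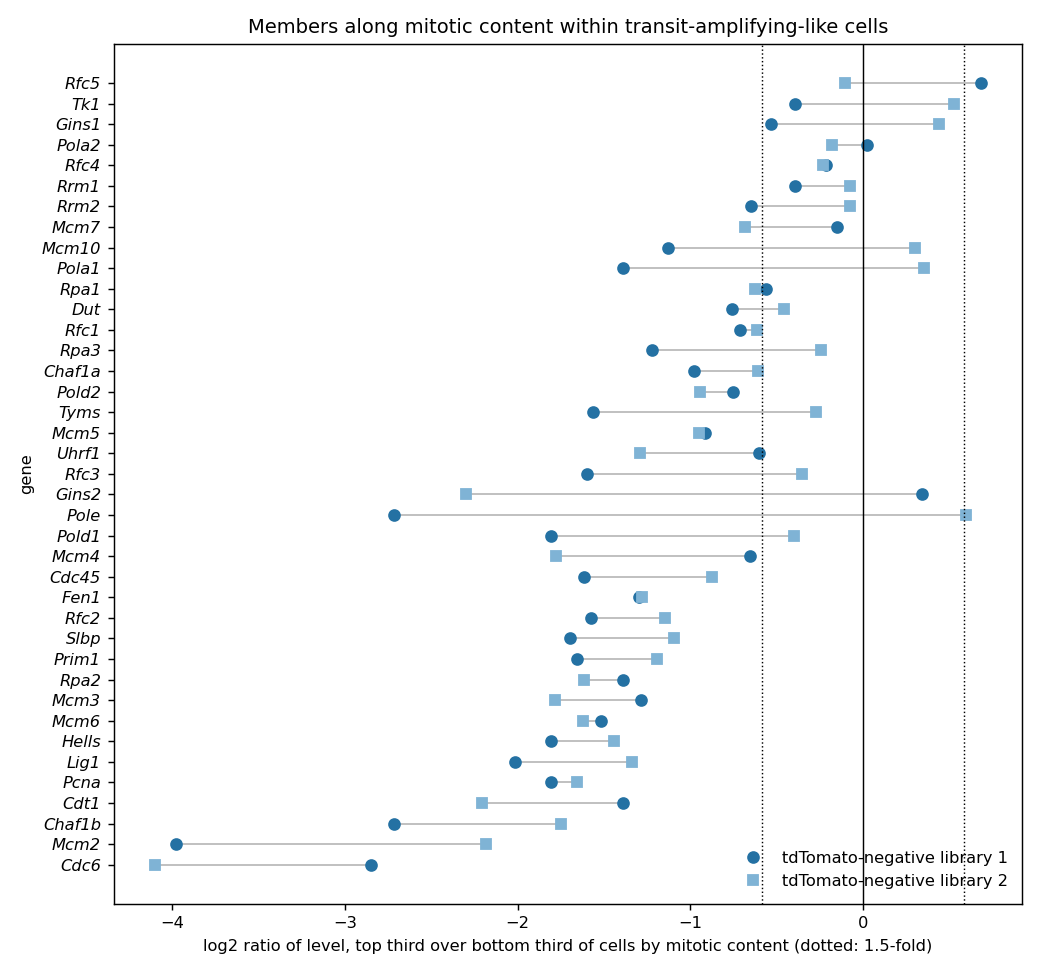
The x axis is the log2 ratio of a member's level in the most mitotic over the least mitotic part of the transit-amplifying-like cells, with 1 marker per tdTomato-negative library, with dotted lines at 1.5-fold. Licensing genes such as Cdc6 and Mcm2 sit at the left (mean -3.48 and -3.08), and Rfc5, Tk1 and Gins1 sit at the right (mean 0.29, 0.07 and -0.04). For Rfc5, Tk1 and Gins1 the libraries had opposite signs.

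Finer clustering, chosen after the data had been seen and given without a test, set apart clusters of similar member level that differed in their mitosis transcripts. An unnamed cluster whose first leading gene was Ung, which encodes an enzyme that removes uracil from DNA, held 11 and 61 cells in the tdTomato-negative libraries. Its members summed to 5930 and 4623 CPM, close to the 5219 and 5789 CPM of the Hist1h2ap-led and the 4869 and 5251 CPM of the Kpna2-led transit-amplifying-like clusters. Its mitosis genes summed to 1395 and 1697 CPM only, against 11726 and 12420, and 14642 and 15441 CPM. Mitosis genes that are also cell type markers, such as Top2a, Mki67, Cenpf and Ube2c, were not left out of the clustering. The contrast in mitosis genes can therefore be partly built in. In the broader clustering the cells of the Ung-led cluster had been split, 45 in the transit-amplifying-like and 26 in the astrocyte-like class. In both libraries 8 members (Mcm2, Mcm3, Mcm6, Gins2, Cdt1, Rpa2, Fen1, Chaf1b) were higher in this cluster than in both others and 4 (Mcm7, Rfc4, Rfc5, Rrm2) were lower, beside 18.0% and 17.2% of 7379 genes with at least 20 UMIs in the 3 clusters. As a share of the 39 members both counts were near or under that background. Mcm2 was at 201 and 162 CPM there, against 78.6 and 77.2 in the Hist1h2ap-led and 41.0 and 88.2 in the Kpna2-led cluster. Rrm2 was at 322 and 242 CPM, against 613 and 609, and 417 and 454.

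Finer clustering also split the neuroblast-like class. The cluster led by Tubb3, Dclk2, Ccnd2 and Arl4d (11 and 97 cells) had 4198 and 2039 CPM of the members with 808 and 643 CPM of the mitosis genes. The Stmn2-led cluster (22 and 92 cells) had 1662 and 1151 CPM of the members, and the Ubash3b-led cluster (17 and 134 cells) 1105 and 902. In all 3 clusters the first library was the higher. In the first library, where the Ccnd2-rich cluster rested on 11 cells, Lig1 was at 355, Pcna at 315 and Mcm5 at 177 CPM, and in the second library they were at 72.6, 109 and 62.7 CPM.

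**Figure D5:**
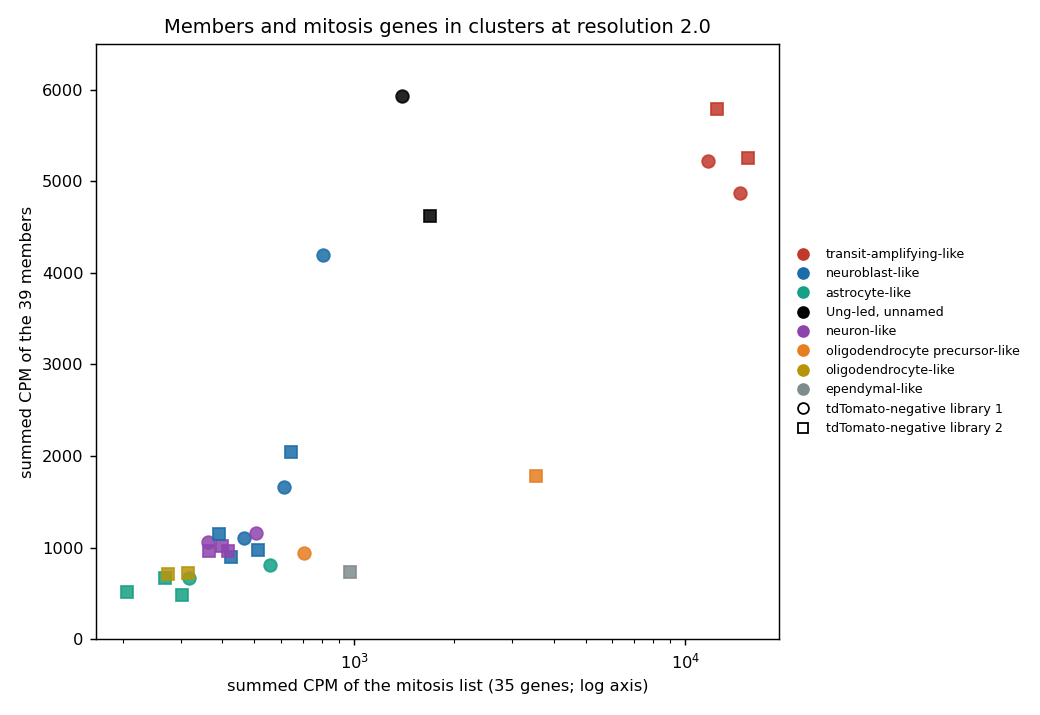
Each point is 1 cluster of the finer clustering in 1 tdTomato-negative library with at least 10 cells; the x axis (log scale) is the summed CPM of 35 mitosis genes and the y axis that of the 39 members. The Ung-led cluster has 5930 and 4623 CPM of the members at 1395 and 1697 CPM of mitosis genes, where the transit-amplifying-like clusters have 11726 to 15441. Mitosis genes that are also cell type markers were not left out of the clustering.

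Ependymal-like cells had few molecules of most members, and 4 members were above 50% of their transit-amplifying-like level with UMIs pooled over libraries. Rpa1 (a subunit of the single-strand binding complex) was at 100.4% of its transit-amplifying-like level, Chaf1a at 69.9%, Mcm4 at 63.0% and Rfc2 (a small clamp loader subunit) at 61.4%. These pooled shares rest mostly on the tdTomato-positive and the second tdTomato-negative library. Within the second library the same 4 were above 50%, at 146% for Rpa1, 87.0% for Chaf1a, 69.6% for Mcm4 and 58.3% for Rfc2. Within the first, on 1 to 4 UMIs each, 8 members were above 50%, among them Mcm4 (188%) and Chaf1a (61.3%) but neither Rpa1 (37.1%) nor Rfc2 (23.9%). Pooled again, another 10 members were between 10 and 50% and 25 were under 10%, among them 3 with 0 UMIs in 234 cells (Hells, Tk1, Cdc6), and the median was 7.73%. The 4 made up 141 of 371, 9 of 53 and 49 of 127 member UMIs in the tdTomato-positive and the tdTomato-negative libraries. The ring genes were uneven: Mcm4 had 25 UMIs, and Mcm2, Mcm3 and Mcm5 had 1, 2 and 1.

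Against astrocyte-like cells, 2 of the 32 members that passed the count filter were higher and 2 lower, beside 15.3% and 9.73% of all genes tested, so the shares were under the background. Chaf1a (chr17:56040439-56072289) was at 47.6 (tdTomato-positive), 44.5 and 63.3 CPM (tdTomato-negative) in ependymal-like cells, against 0, 23.6 and 4.61 CPM in astrocyte-like cells. All ependymal-like values lay above all astrocyte-like ones, and the change was 2.82 ± 0.71 (7.07-fold, adjusted p = 0.000533, edgeR). The call held in all 11 alternatives that tested the gene, with adjusted p from 0.000121 to 0.0359. Mcm4 (chr16:15623897-15637400) was at 25.5, 89.0 and 34.5 against 0, 7.87 and 12.3 CPM, again with no overlap, a change of 1.91 ± 0.71 (adjusted p = 0.0308, edgeR) on 25 and 9 UMIs, which was lost under DESeq2 (adjusted p = 0.083) and without the tdTomato-positive library (0.0507). Outside the naming rule, Rpa1 was at 54.4, 22.2 and 86.3 against 30.6, 47.2 and 18.4 CPM (1.34 ± 0.54, adjusted p = 0.0504, edgeR), and the groups overlapped. Rfc2 was at 112, 44.5 and 97.8 against 30.6, 55.1 and 58.4 CPM (0.85 ± 0.40, adjusted p = 0.113, edgeR).

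The lower calls were Hells and Rfc4. Hells had 0 UMIs in ependymal-like cells and 0, 39.4 and 16.9 CPM in astrocyte-like cells (adjusted p = 0.0327, edgeR), and Rfc4 was at 1.70, 0 and 5.75 against 0, 31.5 and 35.4 CPM (-2.47 ± 0.99, adjusted p = 0.0490, edgeR). The tdTomato-positive library, with 17 astrocyte-like cells, thus had 0 UMIs of both genes on the astrocyte-like side. Hells was called in 3 of 11 alternatives and Rfc4 in 3 of 12. Neither was called when only the Slc7a10-led astrocyte-like cluster was used (adjusted p = 0.611 and 0.229, edgeR).

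Beside these values stand markers of other cells in ependymal-like cells. The 12 ependymal markers were all detected and summed to 14336, 13992 and 15688 CPM in the 3 libraries. Of 10 transit-amplifying markers 6, 6 and 9 were detected, summing to 156, 556 and 449 CPM, against 9825 and 8769 in transit-amplifying-like cells, so both marker and member sums were higher in the tdTomato-negative libraries. Their part in the member levels was not tested. The 3′ side of Chaf1a overlaps Ubxn6 on the opposite strand, and the strand used in counting was not given in the sources used here. Ubxn6 was at 90.1, 44.5 and 74.8 CPM in ependymal-like and 61.2, 94.5 and 53.8 in astrocyte-like cells, and at 136 and 116 CPM in neuron-like cells, where Chaf1a was at 0 and 3.79. Rfc2 overlaps Lat2, which had 0 CPM in ependymal-like cells. Further members also overlap other genes, among them Mcm7 (Cops6), Tk1 (Afmid), Rfc4 (Eif4a2), Rfc5 (Wsb2) and Gins2 (Gse1). The same holds for Cdt1 (Gm20388), Rpa1 (Gm47300), Fen1 (Tmem258), Cdc45 (Ufd1) and Lig1 (Zswim9). Pcna and Tyms have processed copies. Reads of all these members are uncertain to that extent.

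The sort gates were compared over all kept cells of each library, which tests the mix of cells in each gate as much as levels within cells; fewer cells of a class and less RNA per cell cannot be told apart in these sums. The members summed to 601 CPM behind the tdTomato-positive gate and to 2815 and 2551 CPM behind the other. Of 38 members tested 31 were lower in the tdTomato-positive library and 0 higher, beside 19.0% of 10944 genes called lower and 22.9% higher (edgeR, 1 residual degree of freedom). Under DESeq2 20 of 38 were lower, beside 6.54% of all genes. In that library 9 members had 0 UMIs. Mcm5 was at 0 against 71.3 and 65.3 CPM, at least 16.0-fold lower at a floor of 3 UMIs, and Hells at 0 against 56.1 and 58.6 CPM, at least 13.9-fold lower. Mcm2 was at 0 against 45.3 and 43.2 CPM, at least 10.5-fold lower. The other 6 (Tk1, Chaf1b, Cdt1, Pole, Cdc6, Mcm10) were at least 2.18-fold to 7.40-fold lower.

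The 7 members that were tested and not called between the gates included the 4 above 50% in pooled ependymal-like cells. The 2 observations share cells and are not independent. Of the 252 kept cells of the tdTomato-positive library 177 were ependymal-like, and these were most of the 234 pooled cells. Rfc2 was at 107 CPM against 121 and 111, and Chaf1a at 40.3 CPM against 35.6 and 30.4. Rpa1 was at 50.0 CPM against 36.7 and 32.3, and Mcm4 at 22.2 against 30.2 and 28.7. The others were Rpa3, Rfc1 and Pola2. Among the called ones, Rrm2 was at 6.94 CPM against 215 and 182 (-4.76 ± 0.52, adjusted p = 4.07e-18, edgeR) and Prim1 at 1.39 against 51.8 and 54.9 CPM from 1 UMI.

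Within ependymal-like cells the gates were compared on 177 cells against 12 and 45. Of 8 members that passed the filter 0 were called in either direction, beside 0.171% of 4098 genes called higher and 0.122% lower; edgeR gave 133 genes at an unadjusted p under 0.05 and DESeq2 9. Chaf1a changed by -0.22 ± 0.71, Rfc2 by 0.49 ± 0.49, Rpa1 by -0.32 ± 0.56 and Mcm4 by -0.90 ± 1.58, all with an adjusted p of 0.999 (edgeR). With 1 residual degree of freedom, an adjusted p that misses the threshold does not show that the gates were alike.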

How the data were processed

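Single cells of 3 sorted libraries were measured by 10x Genomics 3′ sequencing, and the deposited matrices hold whole-number UMI counts per gene and cell barcode, not normalized, per the file headers and values. Cell Ranger, STAR and Seurat 1.4.0.15, with the builds GRCm38.p5 and mm10, are named per the submitters' processing notes; their settings, cell calling and counting strand were not given in the sources used here. The 39 members and all gene lists were chosen with earlier results of these data known.

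Barcodes were kept where 300 or more genes were detected and mitochondrial UMIs made up no more than 25%. Cells were scaled to 10000 UMIs, log transformed and clustered in scanpy 1.11.5 (Python 3.11.15) on 14023 genes that leave out every member, using 1000 variable genes, 20 principal components, 15 neighbours and Leiden resolution 1.0. Clusters were named from 108 markers in 13 lists. Scrublet called 3.57%, 0.781% and 0.268% of the cells as doublets; they stayed in, and removal was an alternative.

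UMIs were summed per class and library with at least 10 cells (18 sums). They were tested on 13975 genes, markers left out, with edgeR 4.0.16 (quasi-likelihood, TMM scaling, library as a block, 7 residual degrees of freedom; R 4.3.3, limma 3.58.1) and Benjamini-Hochberg adjustment at 0.05. Gates were tested on library sums. DESeq2 1.42.0, RLE scaling, no count filter, a stricter cell filter, resolution 2.0, clustering without cycle genes, no block and leaving out each library were alternatives, and the Slc7a10-led astrocyte-like cluster alone was added after seeing the data. The fits were also run on simulated data with known fold changes, set in abundant genes only. All simulated sums came from the same pooled profile at a fixed spread. Those runs therefore do not show how the fits treat sparse members.

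Named genes were the top 2 of each role by level in transit-amplifying-like cells, the members called between ependymal-like and astrocyte-like cells, those with the largest and smallest fold in each class comparison, and the 3 lowest and highest along mitotic content; any other was named after its values were seen. Exact binomial and Poisson 95% intervals and floors of 3 UMIs cover counting error only. Gene positions are from GENCODE vM21 (GRCm38), and promoter windows from RefSeq (GRCm38.p6). The values of 1 gene are not reported here.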

Additional observations from a re-analysis of the deposited data

Results flagged for a closer look

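Barcodes left out by the cell filter also held UMIs of the members: 21 UMIs in 62 barcodes of the tdTomato-positive library (309 CPM), 4 in 3 barcodes of the first tdTomato-negative library (1066 CPM) and 4 in 6 barcodes of the second (518 CPM). These barcodes entered no comparison. Rfc4 was 1.70 CPM higher in ependymal-like than in astrocyte-like cells of the tdTomato-positive library (1.70 against 0 CPM) and lower in both tdTomato-negative libraries (0 against 31.5 and 5.75 against 35.4 CPM). That value rests on 1 UMI, and the difference between the gates was not tested.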

How the results depend on the processing

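Members called higher in transit-amplifying-like than in neuroblast-like cells numbered 29 of 32, 10 under DESeq2 (1 member had no adjusted p) and 2 to 31 when 1 library was left out. Against astrocyte-like cells they numbered 32, 18 under DESeq2 and 9 to 34 with 1 library left out; without the second tdTomato-negative library only 11 members were tested. RLE scaling moved the median log2 fold change of all genes in that comparison from 0.08 to -0.15 and the split of all genes from 952 higher and 795 lower to 782 and 1042, while all 32 members were still called higher. Between ependymal-like and astrocyte-like cells the higher calls went from 2 to 1 under DESeq2, 4 with cycle genes out of the clustering and 0 to 2 with 1 library left out. The lower calls there went from 2 to 1 under RLE scaling and the strict cell filter, and to 0 with no count filter, DESeq2, resolution 2.0, cycle genes out of the clustering, Scrublet calls removed or the Slc7a10-led cluster alone, with 0 to 3 when 1 library was left out. Over all genes, ependymal-like against astrocyte-like cells gave 657 higher and 418 lower calls of 4295. These were 480 and 301 under DESeq2, and 699 and 413 of 4116 with cycle genes out of the clustering. The gates gave 31 lower members and 20 under DESeq2. The cause of these changes was not tested.

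Without the replicate block of libraries the class comparisons gave 26, 32, 3 and 10 calls (higher against neuroblast-like, higher against astrocyte-like, and ependymal-like higher and lower against astrocyte-like). Over all 4295 genes tested the calls numbered 266, 808, 727 and 527 in the same order. For the gates no paired analysis was possible, because the tdTomato-positive gate has 1 library. Gates with 1 tdTomato-negative library left out have no residual degrees of freedom.

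Between the gates Rfc2 changed sign under the strict cell filter (0.021 from -0.06). Within ependymal-like cells, with 1 tdTomato-negative library left out in turn, the log2 change was -0.36 to 0.21 for Chaf1a and -0.60 to 1.20 for Rpa1, both positive without the second library. Thinned to 1000 UMIs, the share of cells with a member UMI was 95.1% in transit-amplifying-like, 65.1% in neuroblast-like, 44.0% in astrocyte-like, 44.0% in ependymal-like and 51.6% in oligodendrocyte-like cells. At full depth it was 87.1%, 78.6% and 76.3% in neuroblast-like, ependymal-like and oligodendrocyte-like cells, and 92.9%, 89.0% and 93.8% under the strict filter. Along mitotic content 9 of 21 members were lower after thinning, beside 115 of 2253 genes, and 17 of 39 when the cells were split at the median, beside 369 of 6984. The astrocyte-like summed level, averaged over the tdTomato-negative libraries, went from 1362 to 611 CPM at resolution 2.0. Of the single-gene values under the alternatives, 509 kept their direction and side of the threshold, 65 lost the call, 10 gained it, 3 changed sign and 2 moved.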
